A study of Rattus norvegicus with 32 samples.

Results

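The genes described here encode the SUMO conjugation machinery and the PIAS ligases, and they were chosen by name. Of the 8 names looked for (Sumo2, Sumo3, Sae1, Uba2, Pias1, Pias2, Pias3 and Pias4), 7 are names of probes on the array, with 9 probes among 30367 and 7 gene names among 26583. The expression of Pias4 was not analysed here. The RNA came from C6, an established rat glioma cell line that served as the model of a glioma, so that a single line stands behind every value. Cells were left untreated (Control), were given angiotensin II (Ang II) at 100 nM, or were given Ang II at 100 nM after 30 minutes with an antagonist at 10 µM, either Losartan (Los, for the AT1 receptor) or PD123319 (for the AT2 receptor). Each of these 4 groups was sampled at 3 h and at 6 h with 4 replicates, which makes 32 one-colour arrays on 8 slides. A slide held replicates of the same number, with the treatments always at the same positions 1 to 4, so that treatment and slide position cannot be told apart. The labels number the replicates without saying that they were separate cultures, and p-values then measure only the spread between these samples, which may be technical.

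The share of spots, controls left out, well above background was 55.9 to 64.7% at 3 h and 64.2 to 79.8% at 6 h. The rule of the scanner software for this was set differently at each time. Of the glial markers, S100b, Vim, Nes and Cnp were well above background on 16 of 16 arrays at both times, while Gfap was so on 0 of 16 and 2 of 16. Of the markers of other cells, Ptprc, Pecam1 and Syt1 were so on 0 arrays, Rbfox3 on 0 and 3, Cdh5 on 12 and 16, and Aif1, Itgam, Cd68 and Snap25 on all 16. The receptor genes Agtr1a, Agtr1b and Agtr2 were well above background on 0 of 16 arrays at either time.

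SUMO proteins are small modifiers that are joined to lysines of other proteins and so change where these proteins go and what they bind. The modifier is first activated by the E1 enzyme, a pair of the subunits Sae1 and Uba2, and is later joined to its target with the help of an E3 ligase. The PIAS proteins are such ligases. They were first found as inhibitors of STAT transcription factors, which carry signals of cytokine receptors to the nucleus.

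The probes below are shown because a call in Ang II x Control at 6 h rests on the Pias1 probe, and because the Sumo2 probe is the one that the files place away from the other Sumo2 probes. Both are printed 5′ to 3′ as the files give them, with rn4 coordinates from the files. The Pias1 probe lies at chr8:67038952-67039011 on the minus strand and is printed 10 times on each array. The Sumo2 probe lies at chr11:81379995-81380054 on the plus strand. The capitals mark the last 18 bases of the Pias1 probe, of which 15 match the first 18 bases of the Pias2 probe, at chr18:74110421-74110480 on the plus strand, when these ends are laid over each other.
Pias1 probe: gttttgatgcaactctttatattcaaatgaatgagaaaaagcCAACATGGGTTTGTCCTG
Sumo2 probe on chromosome 11: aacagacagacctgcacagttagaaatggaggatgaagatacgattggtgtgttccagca
Each of these probes has 1 of its 3 forward reading frames free of stop codons. The other Sumo2 probes lie on the minus strand of chromosome 10, at 105608119 to 105608177 and at 105608659 to 105608718, and the longest run they share with the chromosome 11 probe is 7 bases. Which transcripts the chromosome 11 probe binds was not tested, and SUMO genes are known for processed copies elsewhere in mammalian genomes. The remaining probes are at chr2:191507111-191507170 (Pias3, plus strand), chr1:76584877-76584936 (Sae1, minus), chr1:86605487-86605546 (Uba2, minus) and chr20:11393959-11394018 (Sumo3, minus). Exons and introns are not given, since no annotation of rn4 was used here.

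A gene entered the tests of a time when the software called a probe of it well above background in 1 group or more, on each of its 4 arrays. At 3 h this held for 5 of the 8 genes (Sumo2, Sae1, Uba2, Pias2 and Pias3) among 13628 genes, and at 6 h for 6, with Pias1 added, among 16441 genes. Sumo3, the paralogue of Sumo2, entered neither test, with 4 of 16 arrays well above background at 3 h and 11 of 16 at 6 h. Values below are log2 normalized intensities, and a difference is a log2 fold change from limma with the replicate number as a block. The limit of the study was an unadjusted p under 0.05, and the p adjusted by Benjamini and Hochberg over all genes of that time is given beside it. The effect of Ang II is given as Ang II x Control. For an antagonist, its group is set against the group with Ang II alone, called the Los comparison (Ang II+Los x Ang II) and the PD123319 comparison (Ang II+PD123319 x Ang II). No group had an antagonist without Ang II, and only the antagonist groups had the 30 minutes before it. An effect of the drug itself or of those minutes therefore cannot be told apart from a block of the receptor. Levels of different probes were not set against each other. In RNA of a whole culture, fewer cells that express a gene and less RNA per cell cannot be told apart.

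At 6 h, 2 of the 6 genes passed the limit in Ang II x Control, with Pias1 higher and Uba2 lower under Ang II, against 21.5% of all genes tested. In the PD123319 comparison, 1 of the 6 did, with Pias3 higher, against 6.37% of all genes. In the Los comparison, 0 of the 6 did, against 1.98%. No gene of the array had an adjusted p under 0.05 by limma in any of these comparisons at 6 h, where 3533, 1048 and 326 genes had an unadjusted p under the limit.

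Pias1 encodes one of the PIAS ligases. In Control its log2 intensity at 6 h was 4.88, 4.76, 5.67 and 5.27 in replicates 1 to 4. Under Ang II it was 5.49, 5.24, 6.02 and 5.45. Every replicate was higher under Ang II than its Control on the same slide, and the groups overlap, with replicate 3 the highest in every group. The log2 fold change was 0.40 (SE 0.097, 95% interval 0.19 to 0.61, a rise of 32.2%, limma adjusted p = 0.0889, higher in 4 of 4 pairs). With Los it was 5.51, 5.29, 5.71 and 5.40, and the difference from Ang II was -0.072 (95% interval -0.28 to 0.14). With PD123319 it was 5.38, 5.05, 5.95 and 5.26, below Ang II in 4 of 4 pairs, and the difference of -0.14 (95% interval -0.35 to 0.075) did not pass the limit. Against Control, 2 of the 6 genes (Pias1 and Uba2) passed the limit in each antagonist group, where 22% of all genes did so with Los and 22.9% with PD123319. Pias1 was above Control by 0.33 with Los (limma adjusted p = 0.0884, 4 of 4 pairs) and by 0.26 with PD123319 (limma adjusted p = 0.145, 3 of 4 pairs). Under 15 alternative settings the call for Pias1 held in 9 with Los and in 8 with PD123319. In both groups it was lost without the replicate block, without replicate 1 (0.23 and 0.19) and without replicate 2 (0.27 and 0.26). These 3 comparisons share the Control arrays. The probe was dim. Its median scanner intensity over the spots of an array was 23.4 to 72.5 at 6 h, and the SD of the log2 intensity over 9 to 10 spots of 1 array had a median of 0.115. With the normexp background and an offset of 50, the rise under Ang II was 0.11 and stayed past the limit, while the values against Control of 0.068 with Los and 0.033 with PD123319 did not pass it. Without the replicate block the value of 0.40 did not pass it.

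**Figure D1:**
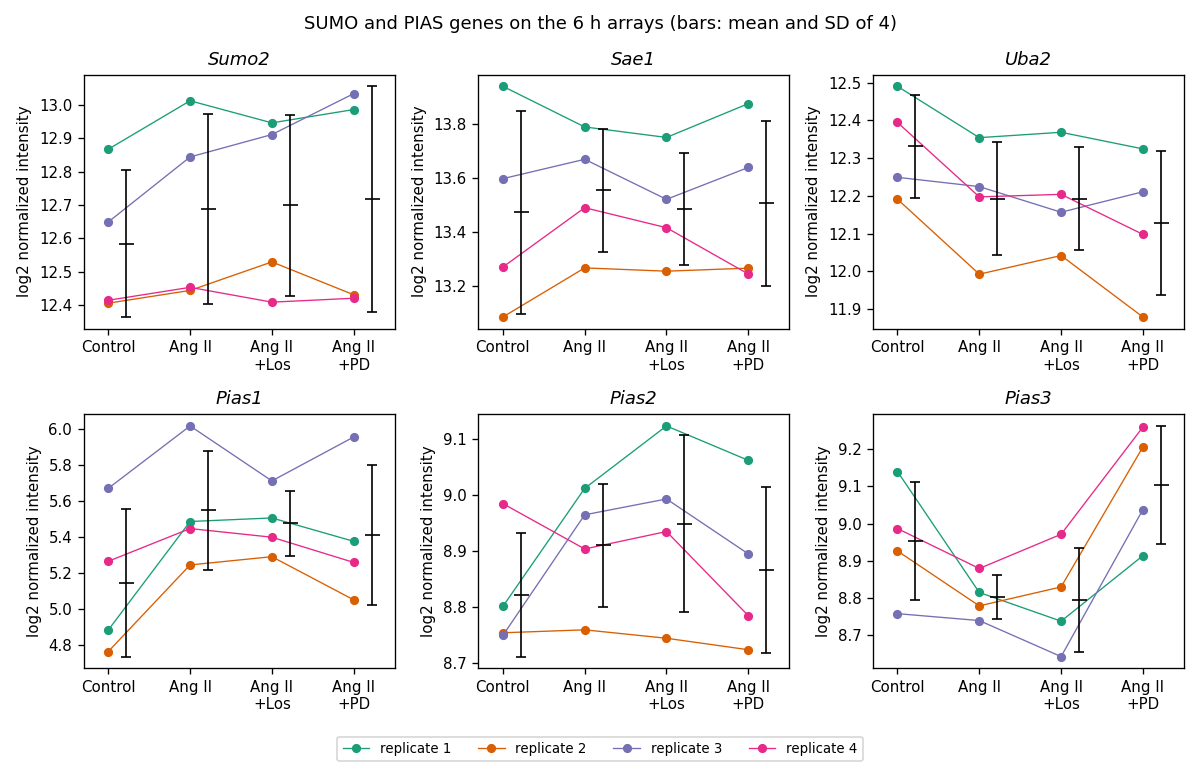
Log2 normalized intensity of the 6 genes tested at 6 h (y axis) in the 4 groups (x axis). Points are arrays, lines join replicates of 1 slide, and black bars give the mean and SD of 4 arrays. The Pias1 line of each replicate goes up from Control to Ang II. The Pias3 points of Ang II+PD123319, from 8.91 to 9.26, all lie above those of Ang II, from 8.74 to 8.88. The share of all genes whose groups are separate was not counted.

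Uba2 is the catalytic subunit of the E1 enzyme. In Control its log2 intensity at 6 h was 12.49, 12.19, 12.25 and 12.39 in replicates 1 to 4. Under Ang II it was 12.35, 11.99, 12.22 and 12.20. Every replicate was lower than its Control, the smallest difference being that of replicate 3, and the groups overlap. Uba2 fell by 0.14 (SE 0.057, limma adjusted p = 0.197, lower in 4 of 4 pairs). With Los it was 12.37, 12.04, 12.16 and 12.20, and with PD123319 12.32, 11.88, 12.21 and 12.10. Neither antagonist group differed from Ang II past the limit (0.0006, 95% interval -0.12 to 0.13, and -0.064, 95% interval -0.19 to 0.061). Both were lower than Control in 4 of 4 pairs, by a log2 fold change of -0.14 with Los (limma adjusted p = 0.187) and -0.20 with PD123319 (limma adjusted p = 0.0815). The call for Uba2 in Ang II x Control was lost when replicate 1, 2 or 4 was left out (-0.14, -0.12 and -0.12) and kept without replicate 3 (-0.18). It held under 6 of 14 alternative settings, as did that with Los against Control, and the call with PD123319 against Control held under 10 of 14. None of the 3 calls held without the replicate block. With Los against Control, leaving out replicate 1, 2 or 4 also ended the call (-0.14, -0.13 and -0.12).

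Sae1, the E1 subunit that partners Uba2, passed the limit in no comparison at 6 h. Its log2 intensity in Control was 13.94, 13.09, 13.60 and 13.27, and under Ang II 13.79, 13.27, 13.67 and 13.49. Replicate 1 was lower and the other replicates were higher, with a log2 fold change of 0.080 (95% interval -0.083 to 0.24). The 2 subunits of the enzyme thus had estimates of opposite sign in Ang II x Control, and the difference between them was not tested. With Los, Sae1 was below Ang II in 4 of 4 pairs, by -0.15 to -0.012, with a log2 fold change of -0.068 (95% interval -0.23 to 0.096).

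Sumo2 encodes one of the SUMO modifiers, and its 3 probes were averaged. At 6 h its log2 intensity was 12.87, 12.41, 12.65 and 12.41 in Control and 13.01, 12.44, 12.84 and 12.45 under Ang II. All 4 pairs were higher under Ang II, by 0.038 to 0.19, and the log2 fold change of 0.10 (95% interval -0.041 to 0.25) did not pass the limit. On the chromosome 11 probe it was 0.15 and on the chromosome 10 probes -0.0017 and 0.16, none past the limit. In Ang II+Los x Control the log2 fold change was 0.23 on the chromosome 11 probe, past the limit (limma adjusted p = 0.172), and -0.050 and 0.16 on the chromosome 10 probes, not past it. In Ang II+PD123319 x Control it was 0.22 on the chromosome 11 probe, also past the limit (limma adjusted p = 0.189), and 0.058 and 0.12 on the others. Whether the probes differ from each other was not tested.

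Sumo3 was dim. Its scanner intensity at 6 h was 44.5, 7.06, 5.95 and 26.2 in Control and 14.6, 6.58, 8.37 and 23.6 under Ang II. Replicates 1 and 4 were the highest in both groups, and the groups overlap. It passed no filter and was not tested with the other genes. Without the filter its normalized log2 fold change in Ang II x Control was -0.25 at 6 h and 0.45 at 3 h. Neither passed the limit, and nor did any other comparison of Sumo3 without the filter.

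Pias3 encodes the PIAS protein known for binding STAT3. Its log2 intensity at 6 h under Ang II was 8.81, 8.78, 8.74 and 8.88. With PD123319 it was 8.91, 9.21, 9.04 and 9.26. The groups do not overlap and 4 of 4 pairs were higher with PD123319. The share of all genes for which this holds was not counted. The log2 fold change was 0.30 (SE 0.082, 95% interval 0.12 to 0.48, a rise of 23.2%, limma adjusted p = 0.497). It was past the unadjusted limit under 15 of 15 alternative settings, with values of 0.26 to 0.37, and the adjusted p was 0.194 or higher under each. In Control it was 9.14, 8.93, 8.76 and 8.99, above Ang II in 4 of 4 pairs, with a log2 fold change for Ang II of -0.15 (95% interval -0.33 to 0.031). With Los it was 8.74, 8.83, 8.64 and 8.97, and the difference from Ang II was -0.0078 (95% interval -0.19 to 0.17). Against Control, the group with PD123319 was 0.15 higher (95% interval -0.029 to 0.33), in 3 of 4 pairs, with replicate 1 lower. Without replicate 1 this became 0.28, past the limit (limma adjusted p = 0.0588).

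Pias2, a further PIAS ligase, passed the limit in no comparison at 6 h. Its log2 intensity was 8.80, 8.75, 8.75 and 8.99 in Control and 9.01, 8.76, 8.97 and 8.90 under Ang II, so that 3 of 4 pairs were higher and replicate 4 was lower. The log2 fold change was 0.087 (95% interval -0.075 to 0.25). With Los and PD123319 the differences from Ang II were 0.039 (95% interval -0.12 to 0.20) and -0.043 (95% interval -0.21 to 0.12).

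Over the 6 genes tested at 6 h, the median log2 fold change was 0.084 in Ang II x Control, -0.0036 in the Los comparison and -0.045 in the PD123319 comparison. Over all 16441 genes it was -0.0058, -0.00084 and -0.0038. Comparisons with the antagonists share the Ang II arrays with Ang II x Control. Against Control, 224 genes with Los and 226 with PD123319 had a limma adjusted p under 0.05 at 6 h, which is 1.36% and 1.37% of all genes, and none of the 6 was among them.

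**Figure D2:**
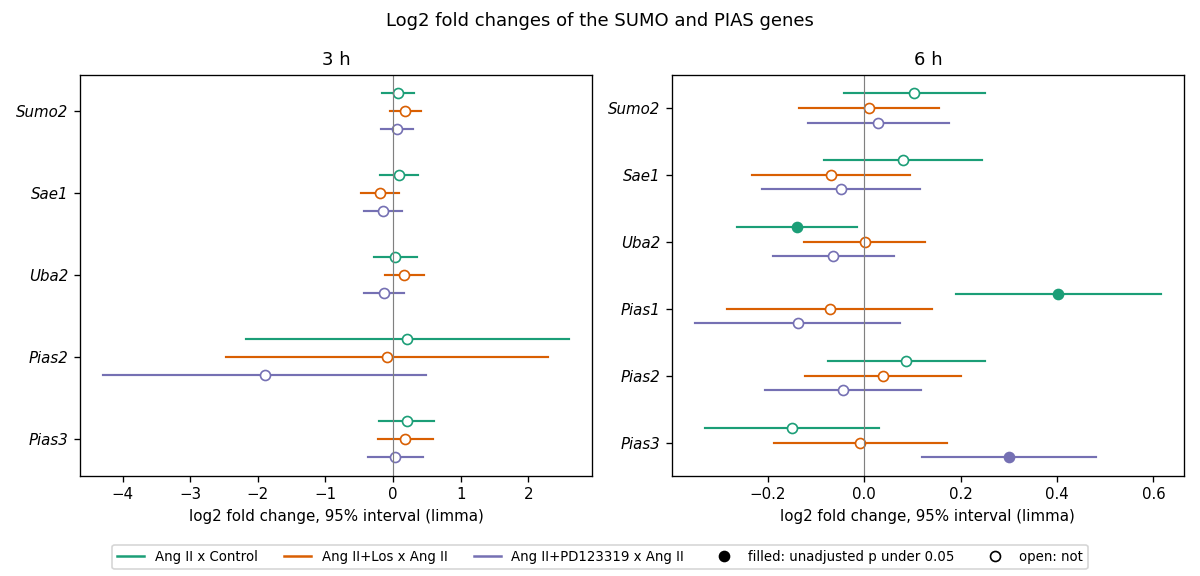
Log2 fold change (x axis, points) with the 95% interval from limma (lines) of each gene (y axis) in the 3 comparisons of the study, at 3 h (left) and 6 h (right, on a narrower scale). Filled points have an unadjusted p under 0.05, which holds for Pias1, Uba2 and Pias3 at 6 h and for no gene at 3 h, where the Pias2 intervals are the widest.

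At 3 h, 0 of the 5 genes tested passed the limit in Ang II x Control or either antagonist comparison (Los, then PD123319), against 12.7%, 10.9% and 2.99% of all genes. By limma no gene of the array had an adjusted p under 0.05 in these comparisons, where 1727, 1489 and 408 had an unadjusted p under the limit. The spread was wider than at 6 h, with a median SE over all genes of 0.159 against 0.103 in Ang II x Control. All 5 estimates in Ang II x Control were above 0, from 0.033 for Uba2 to 0.21 for Pias2, with a median of 0.089 against 0.0022 over all genes. The medians were 0.17 and -0.14 in the Los and the PD123319 comparison, against 0.0032 and -0.018 over all genes.

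Sumo2 was 12.73, 12.27, 11.52 and 12.16 in Control at 3 h and 13.08, 12.54, 11.78 and 12.28 with Los. Los was above Control on every slide. Its rise in Ang II+Los x Control was 0.25 (SE 0.11, limma adjusted p = 0.217), where 1 of the 5 genes and 21.7% of all genes passed the limit. In Ang II+PD123319 x Control at 3 h, 0 of the 5 did, against 7.55%. In Ang II+Los x Control, only the chromosome 11 probe passed the limit on its own (0.36, limma adjusted p = 0.199). The chromosome 10 probes were at 0.22 and 0.18, and their mean gave 0.20, not past the limit. The call of Sumo2 in Ang II+Los x Control was also lost when any 1 replicate was left out (0.22 to 0.29).

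Sae1 spanned 12.59 to 14.17 over the Control arrays at 3 h and 12.47 to 14.16 under Ang II, the difference being 0.089 (95% interval -0.19 to 0.37). Most of this range lay between slides, with replicate 3 low and replicate 1 high in all groups. With Los it was lower than under Ang II in 3 of 4 pairs, with a log2 fold change of -0.20 (95% interval -0.48 to 0.083), which became -0.32, past the limit, without replicate 1 (limma adjusted p = 0.480), and -0.074, not past it, without replicate 2. Uba2 was 12.27, 11.68 and 12.22 in replicates 1, 3 and 4 of Control, since its spot in replicate 2 had an outlier flag and was left out. Under Ang II it was 12.35, 12.07, 11.78 and 12.19, with a log2 fold change of 0.033 over 3 pairs (95% interval -0.29 to 0.36).

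Pias3 at 3 h was 8.93, 7.91, 8.71 and 8.63 in Control and 8.74, 8.85, 8.36 and 9.05 under Ang II. Replicates 2 and 4 were higher and replicates 1 and 3 lower, with a log2 fold change of 0.20 (95% interval -0.20 to 0.61). Pias1 did not enter the tests at 3 h, with 10 of 16 arrays well above background. Its scanner intensity was 20.6, 24.3, 8.38 and 15.95 in Control, and 38.8, 61.4, 13.5 and 24.5 under Ang II. With Los it was 39.6, 6.16, 7.19 and 24.5, and with PD123319 39.0, 55.4, 10.5 and 24.3. These values are not scaled between arrays. Without the filter the normalized log2 fold change in Ang II x Control was 0.56, not past the limit, and that from the deposited values, also 0.56, did not pass it either. In the Los comparison it was -0.70 without the filter, not past the limit, and -0.73 with the deposited values, past it (limma adjusted p = 0.416). Replicate 2 had the widest difference, with a normalized log2 intensity of 2.81 with Los against 4.91 under Ang II. Replicates 1, 3 and 4 were at 4.30, 3.60 and 4.75 against 4.52, 3.97 and 4.85. On the Los array of replicate 2 the SD over the Pias1 spots was 0.74, the highest at 3 h. How far the value rests on that array was not tested.

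Pias2 at 3 h was read on all 16 arrays, of which 15 lay between 8.04 and 9.002. The exception was replicate 3 of Ang II+PD123319, at 0.99, where the scanner intensity was 3.78 without an outlier flag. The log2 fold change in the PD123319 comparison was accordingly -1.90 with an SE of 1.10, and without that spot it was -0.096, neither past the limit. On the same array, of the 31 bright spots within 6 rows and 2 columns of the Pias2 spot, 7 read over 10-fold below their median over the 16 arrays. Spots with a median intensity of at least 100 counted as bright. On the other 3 arrays of the group 0 of the 31 did so, and over all bright spots of an array the share had a median of 0.0436%. It was highest, at 0.702%, on replicate 2 of Ang II+Los at 3 h.

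**Figure D3:**
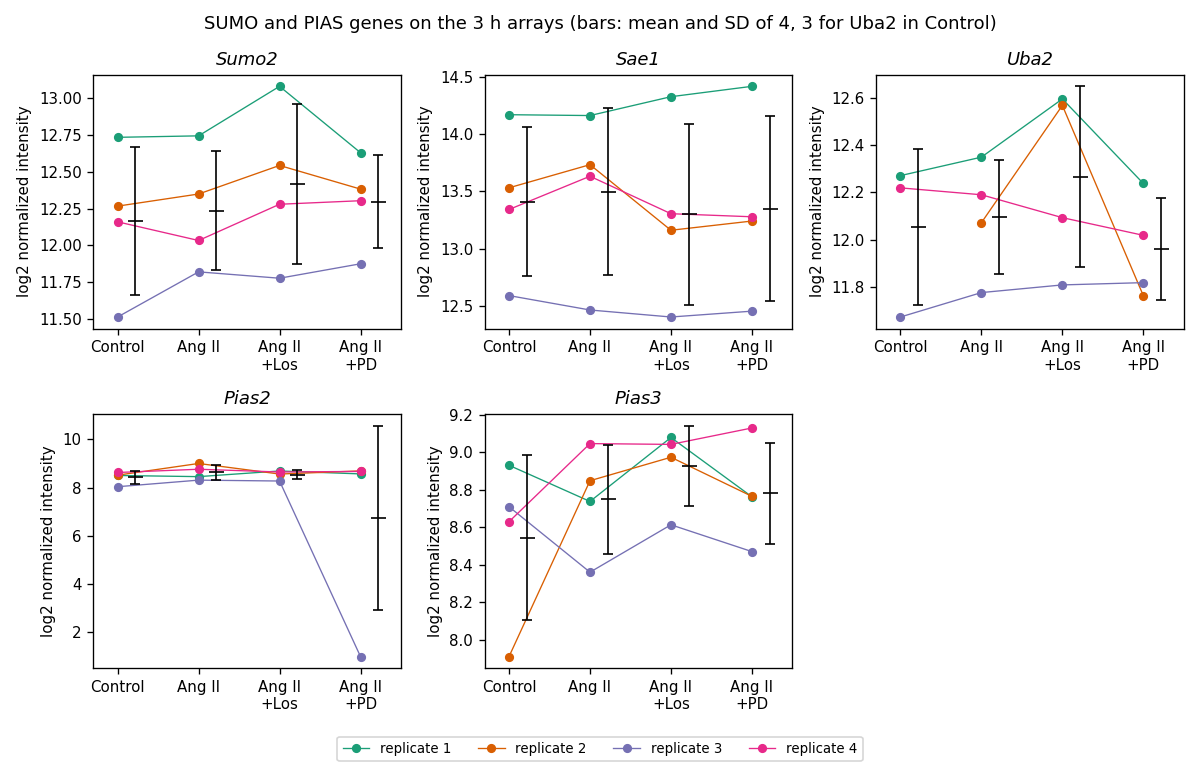
Log2 normalized intensity of the 5 genes tested at 3 h (y axis) in the 4 groups (x axis). Points are arrays, lines join replicates of 1 slide, and black bars give the mean and SD of 4 arrays, or of 3 for Uba2 in Control. The Pias2 point of replicate 3 of Ang II+PD123319, at 0.99, stands apart from the other 15, which lie between 8.04 and 9.002.

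The change of each comparison from 3 h to 6 h was tested by an interaction over 13615 genes, and 0 genes had an adjusted p under 0.05 by limma in any of the 5 comparisons. The arrays of 3 h and 6 h were on different slides, were scanned in different sessions with a different background step, and were normalized apart. Time cannot be told apart from these. For the 5 genes tested at both times and the 5 comparisons, 2 of 25 differences had an unadjusted p under 0.05. Over all genes the share was 7.19% in Ang II x Control, 5.04% in the Los comparison and 1.73% in the PD123319 comparison, and against Control it was 20% with Los and 6.18% with PD123319. Both differences were in Ang II+Los x Control, -0.54 for Pias3 (limma adjusted p = 0.187) and -0.34 for Uba2 (limma adjusted p = 0.215). For Pias3 in the PD123319 comparison, which passed the limit at 6 h and not at 3 h, the difference was 0.27 (SE 0.21) and not past the limit, so that a change with time was not shown.

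The wider pathway was read from lists of 40 names in all, of which 39 are on the array, 36 were tested at 3 h and 37 at 6 h. For these genes the adjusted p is given for Socs1 at 6 h only. As said above, no gene of the array had one under 0.05 by limma in any comparison of the study. In Ang II x Control at 6 h, 6 passed the limit as higher and 3 as lower, against 10.6% and 10.8% of all genes. Of 7 other SUMO E3 ligases, Zmiz2, which has a PIAS-like zinc finger, was higher (0.40), while Znf451, named Zfp451 on the array, was lower (-0.27). Of 9 SUMO proteases, Senp1 was higher (0.28) and Uspl1 lower (-0.16). Rnf111, which ubiquitinates SUMO-modified proteins, was lower (-0.14), and Rnf4 had -0.096. Pml (0.33), the SUMO-modified organizer of nuclear bodies, and Daxx (0.14), which resides there, were higher.

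Of 8 JAK-STAT genes tested, Socs1, an inhibitor of JAK kinases, was higher by 0.60 (limma adjusted p = 0.0575), and Stat5b, a transcription factor of this pathway, was higher by 0.35. The 7 E1 enzymes of other modifiers held 0 calls. The median over the 37 genes was 0.017, against -0.0058 over all genes.

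**Figure D4:**
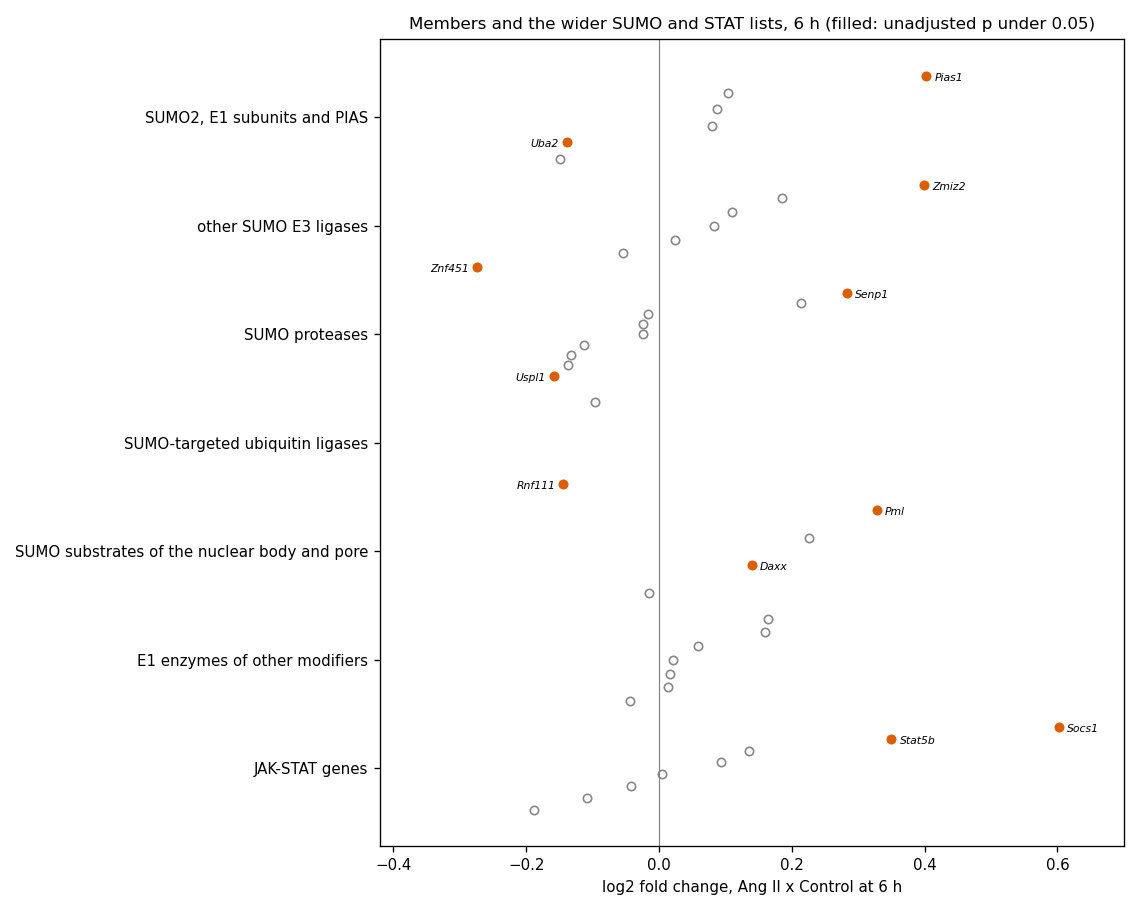
Log2 fold change in Ang II x Control at 6 h (x axis) of the SUMO2, E1 and PIAS genes (top) and of the wider lists (y axis). Each point is a gene, filled and named where the unadjusted p was under 0.05. Filled points lie on both sides of 0, 6 above and 3 below over the wider lists.

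In the Los comparison at 6 h, 0 of the 37 were higher and 1 lower (Rnf111, -0.14), against 0.809% and 1.17% of all genes. In the PD123319 comparison at 6 h, Uba7, the E1 enzyme of Isg15, was higher (0.23) and Zmiz1 lower (-0.41), against 3.88% and 2.49%. At 3 h, Uba3 (0.72), Socs1 (0.59) and Topors (0.29) were higher and Stat2 (-0.26) lower in Ang II x Control, against 5.33% and 7.34% of all genes. In the Los comparison at 3 h, Stat5a (0.34) and Znf451 (0.34) were higher and Trim28 (-0.31) lower, against 4.89% and 6.03%. In the PD123319 comparison at 3 h, 0 of the 36 passed in either direction, against 2.1% and 0.895% of all genes.

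Across arrays, with each slide's mean removed, the genes most like each member were found by Pearson's r over 32 arrays, as a description. For Uba2, on 31 arrays, these were Nrf1 (0.947), Fndc3a (0.937) and Rb1cc1 (0.931). For Sumo2 they were Ntan1 (0.896), Pex13 (0.864) and Rpl23a (0.836), for Pias3 Npff (0.886), Notch1 (0.860) and Xylt2 (0.851), and among those of Sae1 were Rab8a (0.798) and Lemd2 (0.790). For Pias2 they were Zfp275 (0.977), Optn (0.977) and Actg1 (0.819), and the probes of Zfp275 and Optn lie near the Pias2 spot on the array. These values rest on the array of the Pias2 spot at 0.99, for without that array r was -0.103, -0.388 and 0.310 over the other 31, an alternative chosen after seeing the data. The genes most like Pias2 were then Eif4e (0.877), Actr2 (0.859) and Snrnp40 (0.848), which were at -0.057, -0.064 and -0.19 on all arrays. Among the members themselves r over all arrays ran from -0.353, for Sumo2 and Sae1, to 0.306, for Sumo2 and Uba2, and that of Sumo2 and Pias2 moved from -0.209 to 0.344 without that array. Pias3 was at 7.91 in replicate 2 of Control at 3 h, against 8.85, 8.97 and 8.77 in the other groups of that slide. Its r without that array was not computed. Arrays of a slide share their processing, and no test was made.

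The promoters of the 8 genes, Pias4 included, were read from RefSeq on the GRCr8 build as windows of 300 bases, 250 before the start site and 50 after it. Their median GC content was 70.0%, against 51.7% over 33469 promoters. Of 6 motifs searched on both strands, CACGTG, an E-box bound by basic helix-loop-helix factors, is in 4 of the 8 (Sae1, Sumo3, Pias2 and Pias4), against 6.42% of all. A loose pattern for the factor NRF1, with 1 base left free, is in 3 (Sae1, Pias1 and Pias4), against 4.25% of all. It is called the NRF1 motif below. The pattern is a palindrome for only 1 choice of the free base, and no match in these 3 genes has that base. Which of the matches are sites of NRF1 was not tested. TTCNNNGAA, the motif of STAT factors, is in 0 of the 8, against 8.87% of all. TGACGTCA is in 0, against 1.83%, CCAAT in 3, against 37.5%, and TTTGGCGC, TTTCGCGC or TTTCCCGC in 0, against 1.72%. The motifs were picked after these windows had been read, so that the shares are descriptions.
The stretches below show these motifs in capitals, to set the shared letters of members of different roles side by side, 5′ to 3′ on the strand of the gene.
Sae1, CACGTG, chr1:86215213-86215242, minus strand: tggcgtctctgtCACGTGatccggggcggc
Sae1, CACGTG, chr1:86215169-86215198, minus strand: gtcttgggcatcCACGTGgtctcccgcaaa
Sumo3, CACGTG, chr20:11020352-11020381, minus strand: cacgcgcccgacCACGTGactccgcgcggc
Pias4, CACGTG, chr7:9197023-9197052, plus strand: gtcgagggccctCACGTGacgcgacggctg
Pias1, NRF1 motif, chr8:72334303-72334332, minus strand: gagcttcactGCGCTTGCGCtgacagacgc
Pias4, NRF1 motif, chr7:9196912-9196941, plus strand: gttcctggggGCGCGTGCGCgcgatgcctc
In Sae1 the E-boxes begin 141 and 97 bases before the start site, in Sumo3 82 bases before it, and in Pias4 and Pias2 3 and 8 bases after it. The NRF1 motif begins 11 bases before the start site of Pias1 and 110 before that of Pias4. No comparison of the arrays bears on the binding of a factor to these windows.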

How the data were processed

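RNA of 32 samples was hybridised to one-colour Agilent 4x44K arrays, and the authors deposited scanner text files with the intensity of 42877 spots per array, made with Agilent Feature Extraction 9.5.3.1 per the labels and file headers. The deposited log2 value table equals log2 of the same intensity (100% of 561803 values within 1e-06), with 38.2% blank. The software's detection rule and background step differed between 3 h and 6 h, so detection was compared within a time only. Probe names and rn4 positions are those of the files.

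At 3 h only, a spot that the software did not call significant, or whose intensity was under its error, was given the error as its intensity. From the intensity, spots with an outlier flag were removed, as were probes then missing on over 2 arrays, spots of a probe were averaged on the log2 scale, and the 16 arrays of a time were normalized together by cyclic loess (3 iterations, span 0.7). A probe was kept when 1 group or more had it well above background on each of 4 arrays, and kept probes were averaged per gene. Tests used limma 3.58.1 in R 4.3.3 with the replicate number as a block, an unadjusted p under 0.05, which was the limit of the study, and Benjamini-Hochberg adjustment over all genes. Replicates of a number shared a slide per the file headers, and their deviations from the group means correlated at 0.147 or more. The scripts were tested on simulated data, where 100 genes had a true log2 fold change of size 0.3 in Ang II x Control. Of these, 43% at 3 h and 65% at 6 h passed the unadjusted limit. The limma adjusted p was under 0.05 for 1% and 13% of them. A change of that size can thus go without a call.

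Every gene of the set was named, pathway genes were named where their unadjusted p was under 0.05, and the 3 genes most like each member were named, save for a few genes and 1 list that are not reported here. Members, lists and motifs were chosen with earlier results of these data known. Alternatives were other normalizations, backgrounds, filters and tests, no replicate block, the deposited values, and each replicate left out. The number of arrays limits the precision.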

Additional observations from a re-analysis of the deposited data

Results flagged for a closer look

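Pias2 in replicate 3 of Ang II+PD123319 at 3 h stood apart from its group, at a log2 intensity of 0.99 against 8.57 to 8.70 in the other 3 replicates. Its gap to the nearest of them was 0.984 of the range of the group, above Dixon's critical value for 4 samples. It was the 1 such value in 43 groups of 4, where chance gives about 1 in 20. The low spots around it are described with the Pias2 values, and their part in the result was not tested.

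The estimate in Ang II+Los x Control differed between the arrays of 3 h and those of 6 h for Uba2, by -0.341 on the log2 scale (0.20 at 3 h and -0.14 at 6 h, limma adjusted p = 0.215). It differed for Pias3 by -0.539 (0.38 at 3 h and -0.16 at 6 h, limma adjusted p = 0.187). The 3 h value of Pias3 was not past the limit, and leaving out a replicate gave 0.15, without replicate 2, to 0.54, without replicate 3 and past the limit. For Uba2 at 3 h leaving out a replicate gave 0.11 to 0.34. These were 2 of 25 differences tested, and neither passed the adjustment. Time cannot be told apart here from the slides, the scan sessions and the background step. In Ang II+Los x Control 20% of all 13615 genes had an unadjusted p under 0.05 for this difference. At 3 h Uba2 was higher with Los in 2 of 3 pairs and Pias3 in 3 of 4, and at 6 h both were lower in 4 of 4.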

How the results depend on the processing

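Of 810 log2 fold changes of single genes under alternative settings, 719 kept their sign and their side of the limit, 47 lost a call, 13 gained one and 31 turned their sign, none of these past the limit on either side. Most of the 810 belong to genes and comparisons without a call in the reported tests, where no call could be lost. The call of Pias3 in the PD123319 comparison at 6 h held in 15 of 15 settings. In Ang II x Control at 6 h, that of Pias1 held in 13 of 15 and that of Uba2 in 6 of 14. That of Sumo2 in Ang II+Los x Control at 3 h held in 4 of 16. No member had a limma adjusted p under 0.05 under any alternative setting. The replicate block is part of the reported tests. Without it, 0 of 6 genes passed in Ang II x Control at 6 h by limma, Pias1 staying at 0.4022 and Uba2 at -0.1391. An unpaired t-test on the same values also gave 0. Quantile normalization, normexp with an offset of 50 and the 8 arrays of the comparison alone each gave 1, the call of Uba2 being lost, and the deposited values gave 1 of the 5 genes tested there, which leave out Uba2. Leaving out a replicate gave 1 to 2. Over all genes the number with an adjusted p under 0.05 there ran from 0 to 324, the highest without replicate 3. In the PD123319 comparison at 6 h, the paired t-test and the 8 arrays alone gave 2, adding Pias1 at -0.14. In the Los comparison at 3 h, scaling to the 75th percentile gave 1 in place of 0 (Sumo2, 0.3253), and the deposited values gave 1 (Pias1, -0.7308, not among the 5 genes tested there otherwise). Leaving out a replicate gave 0 to 1, which was Sae1 without replicate 1, with values of -0.319 to -0.0742. The median there was -0.0756 with the deposited values, and in the PD123319 comparison at 3 h it was 0.0337 with the stricter filter, over 3 genes each. Apart from the genes not tested with the deposited values, the cause of these changes was not tested.

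Signs turned as follows at 3 h. In Ang II x Control, Uba2 was -0.0235 with 75th percentile scaling and -0.043 with quantile normalization, where Sumo2 was -0.0143. Leaving out a replicate gave -0.0038 to 0.0812 for Uba2, -0.0115 to 0.1327 for Sumo2 and -0.0418 to 0.3875 for Pias3. It gave -0.1962 to 0.028 for Pias2 in the Los comparison and -0.0087 to 0.1193 for Sumo2 in the PD123319 comparison. Against Control with normexp, Sae1 was 0.0793 with Los and 0.1256 with PD123319, where leaving out a replicate gave -0.1626 to 0.016 for Sae1 and -2.3115 to 0.0955 for Pias2. Pias2 was 0.115 there without its low spot, an alternative chosen after seeing the data.

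At 6 h, with each probe of Sumo2 on its own, 1 of the chromosome 10 probes was at -0.0017 in Ang II x Control, -0.0483 in the Los comparison and -0.0499 in Ang II+Los x Control. In these the other chromosome 10 probe was at 0.16, -0.0044 and 0.16, and the chromosome 11 probe at 0.15, 0.084 and 0.23. Without its chromosome 11 probe, also chosen after seeing the data, it was -0.0264 in the Los comparison. Leaving out a replicate there gave -0.0145 to 0.036 for Sumo2, -0.041 to 0.0219 for Pias3, -0.0156 to 0.0235 for Uba2 and -0.1109 to 0.0059 for Pias1. In the PD123319 comparison it gave -0.024 to 0.0501 for Sumo2 and -0.0919 to 0.0183 for Sae1. Against Control it gave -0.0399 to 0.0793 for Sae1 with Los, and with PD123319 -0.0161 to 0.0653 for Sae1 and -0.0282 to 0.1253 for Pias2. Signal over background limited Pias1 at 3 h and Sumo3 at both times.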
